A study of Mus musculus with 14 samples.

Results

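The 10 arginine and polyamine metabolism genes Slc7a2, Arg1, Arg2, Nos2, Ass1, Asl, Odc1, Srm, Sms and Sat1 were followed in primary bone marrow-derived macrophages (pBMDMs). They were taken by gene symbol from a table of 55414 genes, and all 10 were found there. The cells came from wildtype C57BL/6N mice 6 to 9 weeks old and had been differentiated with M-CSF. They were incubated for 24 h with supernatants of Pfa1 mouse embryonic fibroblasts (MEFs), a line in which 4-hydroxytamoxifen (4OHT) deletes Gpx4 and so triggers ferroptosis, an iron-dependent death by lipid peroxidation. The study used 4OHT at 1 µM and Ferrostatin-1, a ferroptosis inhibitor, at 1 µM on these MEFs. Ctrl macrophages received supernatant of untreated MEFs, Tam macrophages that of MEFs given 4OHT (the ferroptotic stimulus), Tam Fer1 macrophages that of MEFs given both agents, and Fer1 macrophages that of MEFs given Ferrostatin-1 alone, with 3 samples in each of these groups. The medium ctrl group received fresh medium with no contact to MEFs and had 2 samples, which makes 14 samples in 5 groups. All supernatants came from 1 fibroblast line, and a product of the dying MEFs and any agent carried over to the macrophages cannot be told apart within a single comparison.

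Arginine stands at a branch point of macrophage metabolism. Slc7a2 encodes a cationic amino acid transporter that brings arginine into the cell. There it is used either by nitric oxide synthase (Nos2) to give nitric oxide and citrulline, which Ass1 and Asl turn back into arginine, or by an arginase (the cytosolic Arg1 or the mitochondrial Arg2) to give ornithine and urea. Ornithine decarboxylase (Odc1) makes putrescine from ornithine, spermidine synthase (Srm) and spermine synthase (Sms) extend it to spermidine and spermine, and spermidine/spermine acetyltransferase (Sat1) marks polyamines for breakdown and export. Nos2 is the textbook gene of classically activated mouse macrophages and Arg1 that of alternatively activated ones.

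Libraries were made from the 3′ end of transcripts, with a total count per sample between 7823028 and 11052333, and 3 counts, taken as the smallest amount told from none, were worth 0.272 to 0.381 CPM, the unit used here for counts relative to the scaled library size. Counts were scaled with TMM factors, and a gene was called where its log2 fold change exceeded 1 in size with an adjusted p under 0.05. Of all genes, 12851 passed the filter on low counts and were tested, among them 8 of the 10 arginine and polyamine genes. All 8 macrophage markers examined were tested, and their summed level lay between 18900 and 43900 CPM, with 28000 to 43900 CPM in Tam and 18900 to 27800 CPM in Ctrl. Of 10 fibroblast markers 6 were tested, with sums of 17.8 to 128 CPM over all samples, and Thy1 had 1 count in all. Of 8 neutrophil and precursor markers 4 were tested. Their sums were 39.1 to 56.5 CPM in medium ctrl and at most 28.2 CPM in any other sample, with Ly6g and Elane at 0 counts in every library. None of the 5 dendritic cell markers passed the filter.

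Arg1 and Nos2, the enzymes that define the 2 ends of the textbook scheme, had at most 3 counts and at most 2 counts in any sample, too few to compare groups at this depth. Arg1 (chr10:24915221-24927484, minus strand, GRCm38) had 8 counts over the 14 samples, 3 and 1 in Fer1 replicates 1 and 3 and 2 each in Tam Fer1 replicates 1 and 2, and 0 in the 10 other samples. Nos2 (chr11:78920787-78960254, plus strand) had 5 counts, 2 in Ctrl replicate 2, 2 in Tam replicate 2 and 1 in medium ctrl replicate 1. Arg1 thus reached the floor of 3 counts in Fer1 replicate 1 and Nos2 reached it in no sample, so no fold change is given for them.

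**Figure D1:**
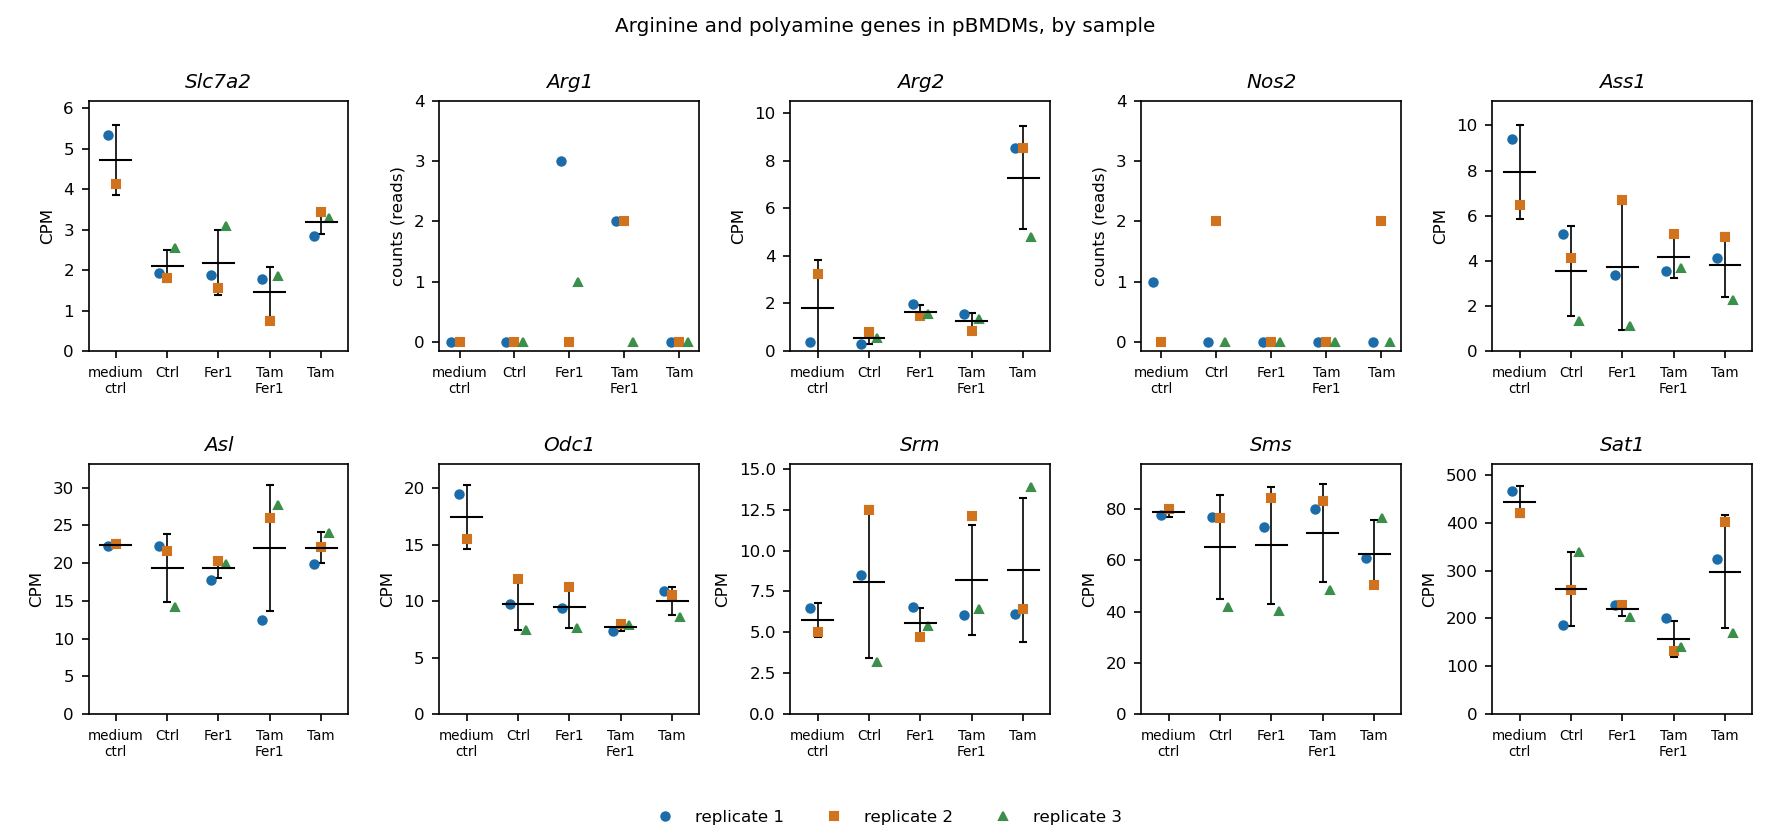
Level of each of the 10 genes in every sample, in CPM (Arg1 and Nos2 in counts), by group, with colour and shape for the replicate number; horizontal bars are group means and vertical bars the SD. Arg2 lies between 4.81 and 8.53 CPM in Tam and at or below 3.23 CPM in every other sample, while Arg1 and Nos2 never pass 3 counts.

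Arg2, the mitochondrial arginase, rose in macrophages given the ferroptotic supernatant. It lies at chr12:79130777-79156301 (plus strand, GRCm38) and overlaps Vti1b and an antisense gene on the opposite strand, and none of its transcripts' 1398 stretches of 31 bases is shared with another gene, Arg1 included. Arg2 had 8.53, 8.52 and 4.81 CPM (81, 94 and 38 counts) in Tam replicates 1, 2 and 3. In Ctrl it had 0.304, 0.804 and 0.552 CPM (3, 8 and 5 counts), close to the detection floor. All Tam samples lay above all Ctrl samples, in each of the 3 replicate numbers and by 4.08, 3.10 and 2.72 on the log2 scale within them.

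The fitted log2 fold change of Arg2 in Tam over Ctrl was 3.70 (SE 0.59, 95% interval 2.41 to 4.99, adjusted p = 0.0128 from edgeR's quasi-likelihood F-test, Benjamini-Hochberg adjusted). Summed over the group, 213 counts in Tam against 16 in Ctrl gave a ratio of 13.5 after scaling, with an exact Clopper-Pearson interval of 8.14 to 24.1 that covers counting error only. Across all 12851 genes, 0.35% were called higher in Tam than in Ctrl, and Arg2 was the 1 gene called among the 8 tested here. The exact two-sided permutation test over samples gave p = 0.1, the smallest that 3 samples against 3 allow. The call was kept in 11 of the 17 fits that left out samples, and was lost without replicate 1 or 2 of all groups, without Ctrl replicate 1 or 2 and without Tam replicate 1 or 2 (log2 fold change 3.26 to 3.93, adjusted p 0.0535 to 0.282 in these 6 fits by the same edgeR test). Without the replicate block its adjusted p was 0.0505 in edgeR, and 0.142 with the other groups left out of the fit. The macrophage marker sum, most of it Lyz2 (means of 26330 CPM in Tam and 18490 CPM in Ctrl), was also higher in Tam than in Ctrl. Of the 8 markers 0 were called by edgeR, with 4 at an unadjusted p under 0.05. Itgam, Fcgr1 and Cd14 pointed lower in Tam (log2 differences -0.264, -0.316 and -0.373) and the others higher. The part of these markers in the Arg2 difference was not tested. In such bulk samples, more cells that make a transcript and more transcript per cell cannot be told apart.

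Ferrostatin-1 given to the MEFs together with 4OHT went with a lower Arg2 level in the macrophages than 4OHT alone. Tam Fer1 samples had 1.57, 0.850 and 1.33 CPM, all below every Tam sample. Arg2 was 2.49 higher on the log2 scale in Tam than in Tam Fer1 (SE 0.53, adjusted p = 0.0422 from edgeR's quasi-likelihood F-test, Benjamini-Hochberg adjusted). In that comparison 0.296% of all genes were called higher, Arg2 being again the 1 of 8. This call was the less secure: 13 of the 17 fits that left out samples lost it (log2 fold change 2.07 to 2.80, adjusted p 0.0543 to 0.382 by edgeR's test), and it was kept without Ctrl replicate 3, medium ctrl replicate 1 or 2, or Tam replicate 3. Without the replicate block the adjusted p was 0.0943 in edgeR. In this comparison the fibroblast collagen gene Col1a1 was called lower in Tam than in Tam Fer1 (log2 difference -1.14, means of 10.1 and 25.5 CPM, adjusted p = 0.0456 by edgeR), 1 of 6 fibroblast markers, although the samples overlapped. Of the 8 macrophage markers 0 were called by edgeR, with 4 at an unadjusted p under 0.05. Among these 4, Adgre1, Lyz2 and Mertk pointed higher in Tam (log2 differences 0.436, 0.362 and 0.472) and Fcgr1 lower (-0.495). The sum of the 8 markers was 22300 to 28900 CPM in Tam Fer1. The part of these markers in the Arg2 difference was not tested.

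With Ferrostatin-1 alone on the MEFs, Arg2 was low but not as low as in Ctrl in these samples, without being called. Fer1 samples had 1.98, 1.46 and 1.54 CPM (20, 14 and 14 counts), each above every Ctrl sample. The log2 difference of 1.60 (SE 0.64, unadjusted p = 0.0265, adjusted p = 1 from edgeR's quasi-likelihood F-test, Benjamini-Hochberg adjusted) was not called. In Fer1 against Ctrl 0 of 12851 genes were called (0%) by edgeR, with 146 genes at an unadjusted p under 0.05 and 10 called by DESeq2, and 0 of the 8 arginine and polyamine genes by either tool, with 1 at an unadjusted p under 0.05.

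Against the remaining groups Arg2 was highest in Tam without being called. Tam exceeded Fer1 by 2.10 on the log2 scale (SE 0.52, adjusted p = 0.074 from edgeR's quasi-likelihood F-test, Benjamini-Hochberg adjusted), where 1.02% of genes were called and 0 of the 8 here by edgeR, with 1 at an unadjusted p under 0.05 and 1, Arg2, called by DESeq2. Leaving out Ctrl replicate 3 or either medium ctrl sample brought the edgeR adjusted p down to between 0.0298 and 0.0493. In fresh medium the samples were far apart, at 0.381 and 3.23 CPM (3 and 29 counts), so the medium level of Arg2 is poorly defined. Tam was 2.15 above it (SE 0.62, adjusted p = 0.0771 by edgeR's test), which became 4.36 without medium ctrl replicate 2 (adjusted p = 0.0411). In Tam against medium ctrl 3.07% of genes were called and 0 of these 8 by edgeR, with 2 at an unadjusted p under 0.05, and 1, Arg2, by DESeq2. In the order of the group means (Tam, medium ctrl, Fer1, Tam Fer1, Ctrl) no pair of neighbours was called different.

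**Figure D2:**
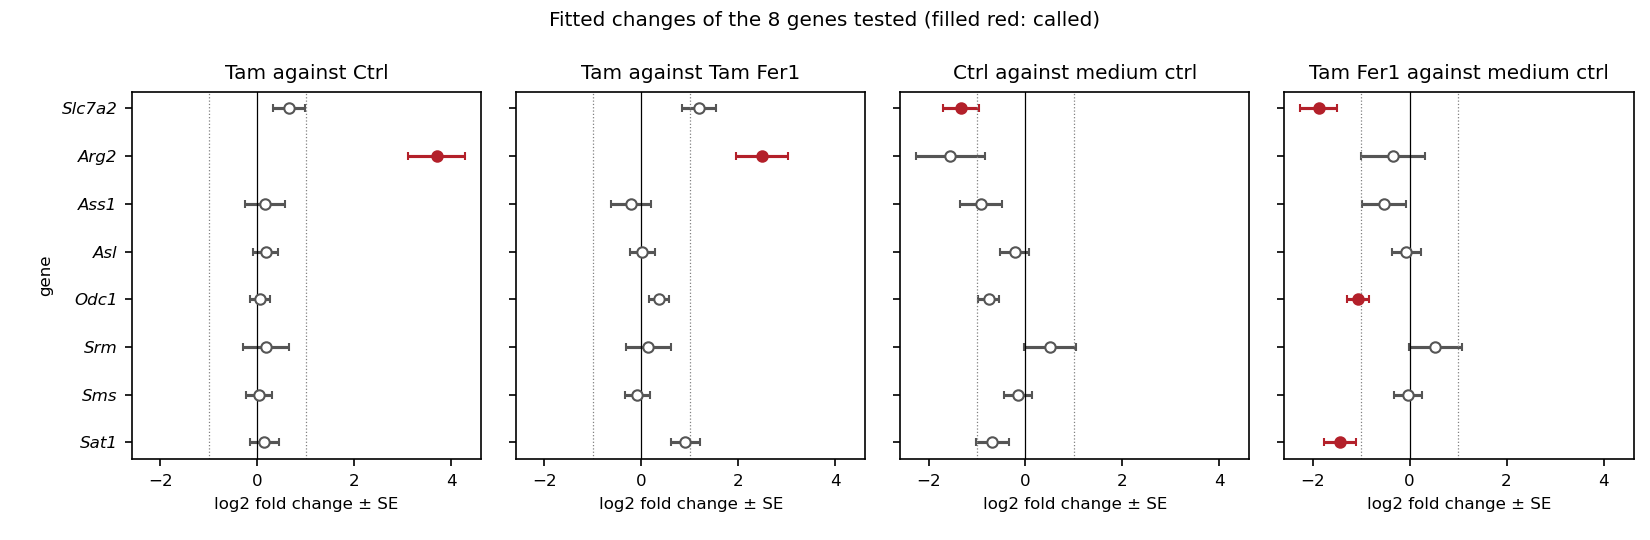
Fitted log2 fold change (points) with its SE (bars) of the 8 tested genes in 4 comparisons; filled red points were called, dotted lines mark a log2 fold change of 1 in either direction. Arg2 stands alone in Tam against Ctrl (3.70) and Tam against Tam Fer1 (2.49), Slc7a2 is called lower in Ctrl than in fresh medium, and Slc7a2, Odc1 and Sat1 are called lower in Tam Fer1.

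Slc7a2, the arginine transporter, had its highest mean among the 4 supernatant groups in Tam as well, without being called there. It lies at chr8:40862396-40922308 (plus strand), with a lincRNA gene overlapping on the opposite strand. Tam samples had 2.84, 3.45 and 3.29 CPM and Ctrl samples 1.92, 1.81 and 2.54 CPM. Every Tam sample lay above every Ctrl and every Tam Fer1 sample (1.78, 0.743 and 1.84 CPM), while Fer1 replicate 3 (3.08 CPM) lay within the Tam range. The Tam against Tam Fer1 difference was 1.19 on the log2 scale (SE 0.34, unadjusted p = 0.00451, adjusted p = 0.148 from edgeR's quasi-likelihood F-test, Benjamini-Hochberg adjusted) and was not called. Among the 8 tested genes, only the transporter and the arginase kept opposite 4OHT differences in all 3 replicate numbers. These pointed up without Ferrostatin-1 and down with it. For Slc7a2 the downward difference in replicate 1 was only -0.076 (17 against 19 counts). Neither gene was called in Tam Fer1 against Fer1 (log2 differences -0.573 for Slc7a2 and -0.394 for Arg2). The share of all tested genes with this sign pattern was not counted.

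**Figure D3:**
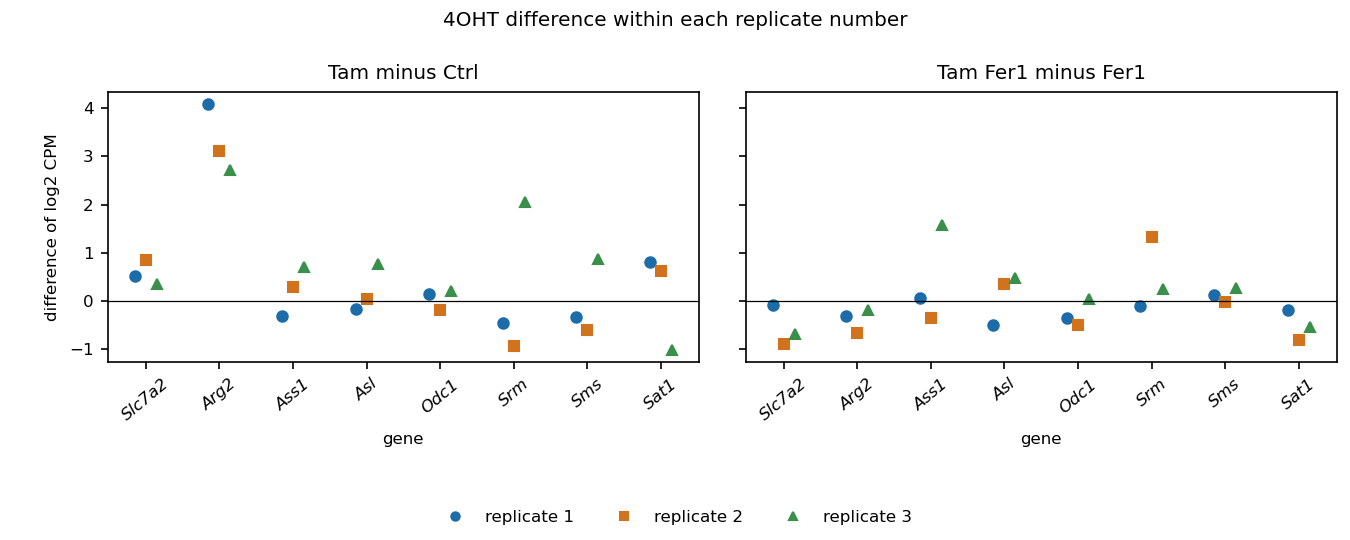
Difference of log2 CPM between Tam and Ctrl (left) and between Tam Fer1 and Fer1 (right) within each replicate number, for the 8 tested genes. Arg2 differs by 4.08, 3.10 and 2.72 on the left and by -0.30, -0.66 and -0.18 on the right; Sat1, Sms and Srm turn sign in replicate 3 on the left.

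Slc7a2, Odc1 and Sat1 had their highest levels in fresh medium, and all 3 were called lower in Tam Fer1. In fresh medium Slc7a2 had 5.33 and 4.12 CPM, above every supernatant sample of the 4 groups (0.743 to 3.45 CPM). Odc1 had 19.4 and 15.5 CPM in fresh medium and 7.32 to 12.0 CPM in the supernatant samples, and Sat1 had 466 and 421 CPM against 131 to 401 CPM. No supernatant sample of these 3 genes reached the medium level. The share of all tested genes that separated in this way was not counted. Ass1 and Sms also lay below both medium samples in every Ctrl and Tam sample. For the 3 genes the exact permutation test against fresh medium gave p = 0.2 in each group. That is the smallest 3 samples against 2 allow. Only 2 medium samples stand behind these comparisons, and the neutrophil marker sum was above every other sample in both of them, a difference whose part was not tested. The fibroblast markers Col1a1 and Col1a2 were also called lower than in fresh medium by edgeR, both in Ctrl (log2 differences -1.17 and -1.22) and in Tam (-1.53 and -1.14), and Col1a2 in Tam Fer1 (-1.08), each with overlapping samples. The sum of the fibroblast markers was 36.6 to 111 CPM in fresh medium, within the range of the other samples, and its part was not tested either. Of the 8 macrophage markers 0 were called by edgeR in Ctrl or Tam Fer1 against fresh medium. In each, 4 had an unadjusted p under 0.05, with median log2 differences of -0.542 and -0.577 over the 8. In Fer1 the median was -0.452, with 3 under 0.05 and 0 called. In Tam it was -0.159, with 1 called lower. Over all genes these medians lay between -0.017 and 0.013. The part of the macrophage markers was not tested.

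In Tam Fer1 against medium ctrl Slc7a2 fell by 1.87 on the log2 scale (SE 0.38, adjusted p = 0.00736 from edgeR's quasi-likelihood F-test, Benjamini-Hochberg adjusted). Odc1 fell by 1.07 (SE 0.23, adjusted p = 0.0109) and Sat1 fell by 1.44 (SE 0.33, adjusted p = 0.0153) in that edgeR fit. So 3 of the 8 genes were called lower, beside 3.28% of all genes. The Slc7a2 call was lost without replicate 1 or 2 of all groups or without either medium sample, and the Sat1 call was lost in these fits and without Tam Fer1 replicate 2. The Odc1 call was lost without replicate 1 or 2 of all groups, medium ctrl replicate 1 or Tam Fer1 replicate 1 or 2, and also with library sizes only (log2 fold change -0.97, adjusted p = 0.0168 in edgeR) and with only the 2 groups fitted.

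Ctrl and Fer1 supernatants gave smaller estimated differences from fresh medium, but Tam Fer1 was not called different from either for these genes. Against Ctrl, Tam Fer1 differed by -0.541 (Slc7a2), -0.304 (Odc1) and -0.761 (Sat1) on the log2 scale. Against Fer1 the values were -0.573, -0.268 and -0.486. Slc7a2 fell by 1.33 in Ctrl (adjusted p = 0.0364) and by 1.30 in Fer1 (adjusted p = 0.0431) by edgeR's quasi-likelihood F-test, Benjamini-Hochberg adjusted. It was the 1 gene of 8 called lower in each, beside 3.69% and 3.18% of all genes. Both calls were lost when almost any sample was left out (13 and 12 of 17 fits, adjusted p up to 0.419 and 0.473 by edgeR; both were kept without Tam Fer1 replicate 1 or 2 and Tam replicate 2 or 3, and the Fer1 call also without Ctrl replicate 3), without the replicate block (0.158 and 0.192), with library sizes only (0.0565 and 0.0621) and without the filter on low counts (0.0586 and 0.0706). Odc1 differed by -0.76 and -0.80 (adjusted p = 0.0491 and 0.0428 in the same edgeR fit), under the fold threshold. Sat1 differed by -0.68 and -0.96 (adjusted p = 0.246 and 0.0945). It was called in Ctrl without Ctrl replicate 3 (log2 fold change -1.0, adjusted p = 0.0339) and in Fer1 without Tam replicate 3 (log2 fold change -1.04, adjusted p = 0.0223). In Tam, Slc7a2, Odc1 and Sat1 lay 0.69, 0.71 and 0.54 below fresh medium on the log2 scale with adjusted p of 0.398, 0.115 and 0.5 in edgeR, none called. These comparisons share the medium samples.

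**Figure D4:**
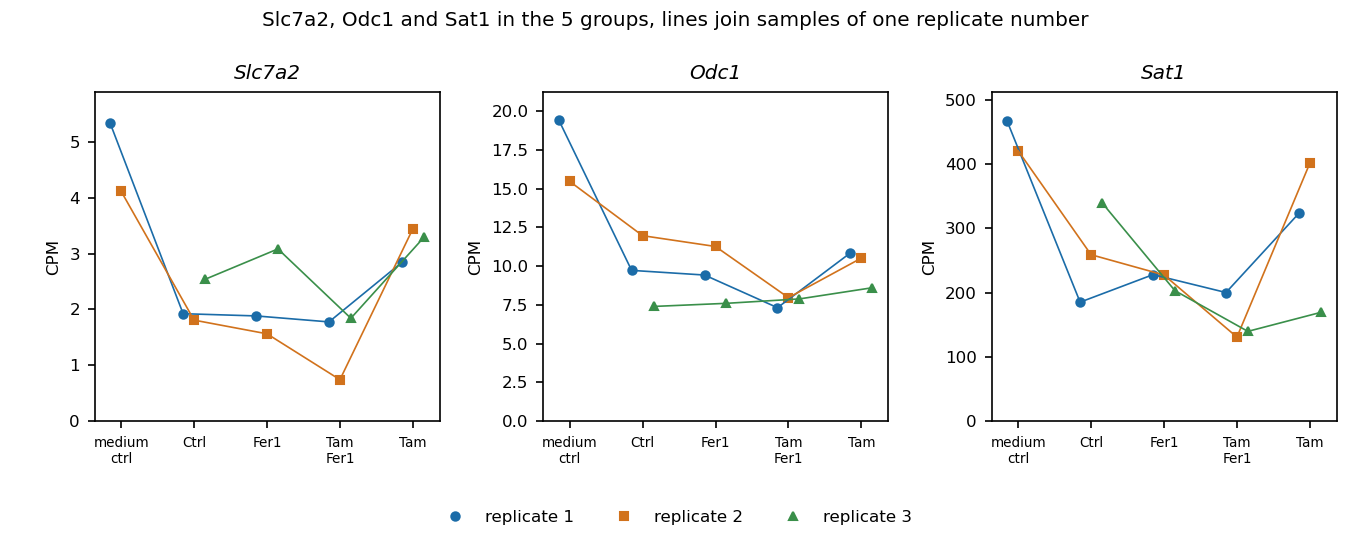
Level in CPM of Slc7a2, Odc1 and Sat1 in the 5 groups, with lines joining samples of one replicate number (medium ctrl has replicates 1 and 2). The medium samples are the highest of each panel, Tam Fer1 holds the lowest sample of each gene, and Sat1 in Tam spans 169 to 401 CPM.

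Sat1 also varied widely within groups. It had 323, 401 and 169 CPM in Tam, and 200, 131 and 140 CPM in Tam Fer1, so that Tam replicate 3 overlapped the Tam Fer1 range. The Tam against Tam Fer1 difference was 0.91 on the log2 scale (SE 0.30, unadjusted p = 0.0096, adjusted p = 0.209 from edgeR's quasi-likelihood F-test, Benjamini-Hochberg adjusted). It was called without Tam replicate 3 (1.24, adjusted p = 0.0275) and without replicate 3 of all groups (1.15, adjusted p = 0.0396). Ctrl had 185, 259 and 340 CPM, which differed from Tam by 0.15 on the log2 scale (SE 0.30).

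Odc1, the entry to polyamine synthesis, and Sat1, the entry to polyamine breakdown, were both called lower in Tam Fer1 than in fresh medium, and their promoters are shown for that reason. RefSeq starts (GRCm38.p6) gave sequences for 4 of the 10 genes. Capitals mark the GC box letters GGGCGG read on either strand, in the 250 bases before to 50 bases after the start. Odc1 is at chr12:17544623-17544922 on the plus strand and Sat1 at chrX:155216400-155216699 on the minus strand.
Odc1: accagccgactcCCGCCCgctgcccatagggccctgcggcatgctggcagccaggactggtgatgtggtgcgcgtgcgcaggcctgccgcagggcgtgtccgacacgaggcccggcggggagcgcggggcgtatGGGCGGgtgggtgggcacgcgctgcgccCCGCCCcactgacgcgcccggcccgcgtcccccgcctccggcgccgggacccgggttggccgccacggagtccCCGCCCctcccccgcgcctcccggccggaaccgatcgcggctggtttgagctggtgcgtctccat
Sat1: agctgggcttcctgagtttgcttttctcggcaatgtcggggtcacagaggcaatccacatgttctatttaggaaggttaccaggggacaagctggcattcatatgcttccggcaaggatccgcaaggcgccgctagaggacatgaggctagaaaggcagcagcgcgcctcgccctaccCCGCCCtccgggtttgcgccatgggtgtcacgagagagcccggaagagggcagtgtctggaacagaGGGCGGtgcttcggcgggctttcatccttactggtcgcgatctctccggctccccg
Odc1 held 4 and Sat1 2 GC boxes, and 35.7% of the 32851 promoters of this length held at least 1. Ass1 and Sms, the remaining genes with sequences, were called in no comparison. Ass1 held 1 GC box, and Sms 4 at 1 of its starts and 0 at the other. Other motifs were looked for on both strands and are not in the Odc1 or Sat1 window. These were the E-box (CACGTG), which 7.15% of promoters held. The AP-1 motif (TGANTCA) was held by 7.81%. The TATA box (TATAAA) was held by 13.6%. The CRE (TGACGTCA) was held by 1.79% of promoters.

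The other polyamine enzymes, Srm and Sms, were not called in any comparison. Srm, spermidine synthase, had 6.11, 6.44 and 13.9 CPM in Tam and 8.51, 12.5 and 3.20 CPM in Ctrl. Replicate 3 went opposite to the others, and the log2 difference was 0.175 (SE 0.475). Sms, spermine synthase, had 61.1, 50.3 and 76.4 CPM in Tam against 77.1, 76.7 and 41.8 CPM in Ctrl, again with replicate 3 reversed. The log2 difference was 0.04 (95% interval -0.53 to 0.60). Sms shares 18.8% of its 31-base stretches with other genes, most with a pseudogene, Odc1 31.3% and Ass1 43.1%, so their counts may have been divided between copies.

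Ass1 and Asl, the enzymes that regenerate arginine from citrulline, were not called in any comparison. Ass1 had 4.11, 5.08 and 2.28 CPM in Tam, 5.17, 4.12 and 1.33 CPM in Ctrl and 9.40 and 6.45 CPM in fresh medium. Both medium samples lay above all Ctrl, Tam and Tam Fer1 samples, and the log2 difference of -0.92 between Ctrl and medium (SE 0.44, adjusted p = 0.23 from edgeR's quasi-likelihood F-test, Benjamini-Hochberg adjusted) was not called. Asl had between 12.4 and 27.7 CPM over all samples, and its Tam to Ctrl difference was 0.17 (95% interval -0.39 to 0.74) on the log2 scale.

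For the whole set, the median log2 fold change of the 8 tested genes was 0.17 in Tam over Ctrl and 0.25 in Tam over Tam Fer1, beside medians of 0.006 and 0.005 over all tested genes. It was -0.72 in Ctrl against fresh medium (-0.008 over all genes). In Tam Fer1 against Ctrl 0 of the 8 genes were called by edgeR or DESeq2, with 1 at an unadjusted p under 0.05 (background 0.0311% of genes), and in Tam Fer1 against Fer1 0 by either tool, with 0 at an unadjusted p under 0.05 (background 0.0233%). The test of whether the 4OHT effect differs with Ferrostatin-1 called 0 of 8 by edgeR, with 2 at an unadjusted p under 0.05 and 1, Arg2, called by DESeq2 (background 0.0311%).

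Of 52 further genes of arginine and polyamine metabolism 37 were tested. In Tam against Ctrl and in Tam against Tam Fer1, 0 were called by edgeR or DESeq2, with 3 in each at an unadjusted p under 0.05, beside 1.11% and 1.03% of all genes called by edgeR in either direction. Against fresh medium, edgeR called 1 of the 37 higher in Ctrl and in Tam and 2 higher in Tam Fer1 and in Fer1, beside 4.1%, 1.42%, 3.92% and 4.03% of all genes. It called 1 of the 37 lower in Ctrl and in Tam Fer1, beside 3.69% and 3.28% of all genes. There Ddah1, which breaks down methylated arginines that inhibit nitric oxide synthase, and its relative Ddah2 went opposite ways in Ctrl and in Tam Fer1. In Ctrl Ddah2 had 13.6, 12.9 and 11.3 CPM and in fresh medium 4.45 and 4.56 CPM, with no overlap. Ddah2 rose by 1.54 on the log2 scale in Ctrl (SE 0.25, adjusted p = 0.00193 from edgeR's quasi-likelihood F-test, Benjamini-Hochberg adjusted) and was called higher in each other supernatant group too, by 1.20 in Tam, 1.78 in Tam Fer1 and 1.77 in Fer1. The Ctrl, Tam Fer1 and Fer1 calls were lost without replicate 1 or 2 of all groups. The Tam call was lost in those fits, without either medium sample, without Tam replicate 1 or 2, and without the replicate block (adjusted p = 0.0618 in edgeR). Ddah1 had 0.608, 0.402 and 0.662 CPM (6, 4 and 6 counts) in Ctrl and 3.30 and 2.23 CPM in fresh medium, and fell by 3.01 (SE 0.76, adjusted p = 0.0245 in the same edgeR fit). Slc25a15, the mitochondrial ornithine carrier, was higher than in fresh medium by 1.26 in Fer1 (adjusted p = 0.0189) and by 1.08 in Tam Fer1 (adjusted p = 0.0423), and not called in Ctrl or Tam. DESeq2 called Slc25a15 in Fer1 and not in Tam Fer1. DESeq2 also called Adi1, an enzyme of the methionine salvage pathway, higher than in fresh medium in Tam, Tam Fer1 and Fer1, where edgeR gave log2 differences of 1.49, 1.43 and 1.39 with adjusted p of 0.0682, 0.0516 and 0.0572, none called. The Ddah1 call in Ctrl was lost without replicate 1 or 2 of all groups, either medium sample, or Ctrl replicate 1 or 3. Ddah1 was not called by edgeR in Tam (0.544 to 2.53 CPM, log2 difference -1.44, adjusted p = 0.34) or in Fer1 (0.209 to 3.08 CPM, log2 difference -2.35, adjusted p = 0.0701), and in both groups the samples overlapped those in fresh medium; DESeq2 called it in Fer1 and not in Tam. Ddah1 was also called lower in Tam Fer1, by 2.92 (adjusted p = 0.0311 in edgeR), a call lost without replicate 1 or 2 of all groups, either medium sample, Tam Fer1 replicate 1 or 2, or Fer1 replicate 3. The Slc25a15 call in Tam Fer1 was kept only without Ctrl replicate 3, Tam Fer1 replicate 1 or Tam replicate 3, and that in Fer1 was lost without replicate 1, 2 or 3 of all groups, without Fer1 replicate 1 or 2 and without either medium sample. Without the replicate block the Ddah1 and Slc25a15 calls were all lost (adjusted p 0.317 and 0.429 for Ddah1, 0.118 and 0.0762 for Slc25a15 in edgeR).

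Predicted genes (symbols of Gm plus digits, or ending in Rik) were left out of a search for genes whose level followed Arg2. Among the remaining tested genes, after removal of each replicate number's mean, the closest over the 14 samples were Pgap1 (Pearson r = 0.86), Cbr3 (0.854) and Entpd1 (0.848). They are given as a description across samples that share groups. Entpd1, which encodes the ATP-hydrolysing surface enzyme CD39, had a mean of 94.1 CPM in Tam and between 49.3 and 58.9 CPM in the other groups. Its log2 difference of 0.929 in Tam over Ctrl was under the fold threshold and not called.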

How the data were processed

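RNA of pBMDMs from 14 samples was sequenced with a 3′-end kit (QuantSeq). Per the submitters' processing notes and the study's methods, the authors aligned reads with STAR 2.7.10a and quantified genes with Salmon 1.5.2. The authors deposited expected counts, that is Salmon's estimates for each gene with no normalization applied. The methods name a human genome, the notes also list GRCm38, and the identifiers are mouse genes. Coordinates are those of GRCm38 in GENCODE. A second deposited table of the authors' DESeq2 1.36.0 comparisons and 14 columns of per-sample CPM were not used.

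The design had assumed whole counts, and the expected counts were rounded (30109 values were not whole). After TMM scaling they went into the quasi-likelihood F-test of edgeR 4.0.16 (R 4.3.3), Benjamini-Hochberg adjusted over the 12851 genes that passed filterByExpr with a minimum count of 10, in 1 model of group and replicate number. The study's methods put mouse ID in the design, and that the number is the mouse was assumed. Same-numbered samples of different groups deviated together from their group means (median r 0.247, lowest 0.00221 over 26 pairs, against a median of -0.139 over 52 pairs of different numbers). Deviations from a group mean cancel within the group, so the value for different numbers is tied to that for the same number and is no separate evidence of pairing. Within groups, chi-square per degree of freedom of sample pairs was 10.9 to 79.4, so no 2 samples agreed within counting noise. SEs were back-calculated from F, and log2 CPM used a prior count of 2. Permutation tests were exact and two-sided, with a smallest p of 0.1 for 3 samples against 3 and 0.2 for 3 against 2. The Clopper-Pearson interval and the floors cover counting error only. Intervals of log2 fold changes rest on the back-calculated SEs and so also cover variation between samples. The 10 genes are all named, and further genes of the pathway and activation lists are named where called in Tam against Ctrl, Tam against Tam Fer1 or Ctrl against medium ctrl, up to 10 per list by smallest adjusted p. The rule takes in 1 gene that is not reported here. Members and lists were chosen with earlier results of these data known. Slc25a15, Adi1 and the markers Col1a1 and Col1a2 fall outside this rule and were chosen after their values were seen. The scripts were tested on simulated data. Alternatives were no replicate block, DESeq2 1.42.0, only the groups compared, other scalings and filters, no fold threshold, and leaving out each replicate number and each sample.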

Additional observations from a re-analysis of the deposited data

Results flagged for a closer look

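The difference made by 4OHT without Ferrostatin-1 against that with Ferrostatin-1 was looked at for each gene, and Arg2 and Slc7a2 went opposite ways in all 3 replicate numbers. For Slc7a2 the difference with Ferrostatin-1 in replicate 1 was only -0.076 on the log2 scale. How many of all tested genes show this pattern was not counted. For Arg2, the Tam to Ctrl difference minus the Tam Fer1 to Fer1 difference was 4.09 on the log2 scale (SE 0.83, unadjusted p = 0.000316, adjusted p = 0.176 from edgeR's quasi-likelihood F-test, Benjamini-Hochberg adjusted). DESeq2 gave 4.13 with an adjusted p of 0.00276, and edgeR without the filter on low counts gave 0.0124. For Slc7a2 it was 1.22 (SE 0.48, adjusted p = 0.732 by edgeR), which did not pass.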

How the results depend on the processing

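Scaling by RLE and a minimum count of 30 left every count of calls within 1.5 times of its main value. These counts cover the 10 genes and all genes tested. Ddah1, with at most 28 counts in any sample, was not tested at the minimum of 30, so its calls have no counterpart there. Without the replicate block, genes called over all genes numbered 6 in Tam against Ctrl, 18 against Tam Fer1, 7 against Fer1 and 97 against medium, 1 in Tam Fer1 against Ctrl and 1 against Fer1, and against medium 485 in Tam Fer1, 453 in Fer1 and 457 in Ctrl. Arginine and polyamine genes called were then 0 in Tam against Ctrl and Tam Fer1, and 0 in Fer1 and Ctrl against medium. Sms in Tam against Ctrl reversed to -0.06 and Arg2 in Fer1 against medium to -0.14. DESeq2 called 277 genes in Tam against Ctrl, 229 against Tam Fer1, 244 against Fer1, 16 in Tam Fer1 against Ctrl, 21 against Fer1 and 10 in Fer1 against Ctrl, and 1 gene here (Arg2) in Tam against Fer1, Tam against medium and the interaction. With only the groups compared, 0 genes were called in Tam against Ctrl (835 at an unadjusted p under 0.05), so 0 here, 37 against Tam Fer1, 667 in Tam against medium, and 0 in Tam Fer1 against Ctrl or Fer1. Arg2 was then the 1 call here in Tam against Fer1 and medium, and Sms in Tam against Ctrl was -0.03. Library sizes only gave 0 calls here in Fer1 and Ctrl against medium. Without the filter 259, 230 and 240 genes were called in Tam against Ctrl, Tam Fer1 and Fer1, 9 and 9 in Tam Fer1 against Ctrl and Fer1, 1 here in Tam against Fer1, Tam against medium and the interaction, and 0 here in Fer1 and Ctrl against medium. With no fold threshold 2 genes here (Odc1, Slc7a2) were called in Fer1 and Ctrl against medium. The causes were not tested.

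Leaving out samples gave these ranges of genes called: Tam against Ctrl 0 to 191, against Tam Fer1 0 to 282, against Fer1 0 to 196, against medium 0 to 496, Tam Fer1 against Ctrl 0 to 5, against Fer1 0 to 4, against medium 111 to 1062, Fer1 against Ctrl 0 to 1, against medium 87 to 1038, and Ctrl against medium 87 to 1077. Arginine and polyamine genes called ranged from 0 to 1 in Tam against Ctrl, Fer1 and medium and in Ctrl against medium, from 0 to 2 in Tam against Tam Fer1 and Fer1 against medium, and from 0 to 3 in Tam Fer1 against medium. Log2 fold changes that changed sign were Arg2 in Ctrl (-2.46 to 0.69), Fer1 (-0.98 to 2.35) and Tam Fer1 (-1.44 to 2.06) against medium and in Tam Fer1 against Fer1 (-0.68 to 0.01). In Tam against Ctrl they were Asl (-0.10 to 0.43), Ass1 (-0.04 to 0.49), Odc1 (-0.04 to 0.19), Sat1 (-0.16 to 0.69), Sms (-0.48 to 0.33) and Srm (-0.74 to 0.79). In Tam against Tam Fer1 they were Asl (-0.28 to 0.27), Ass1 (-0.52 to 0.25), Sms (-0.59 to 0.20) and Srm (-0.58 to 0.68), in Fer1 against Ctrl Odc1 (-0.13 to 0.10), Sat1 (-0.56 to 0.15) and Slc7a2 (-0.15 to 0.16), and Srm in Ctrl against medium (-0.10 to 0.88).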

Other observations

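Genes of classical and alternative macrophage activation were counted beside the arginine genes. Of 17 tested classical genes, 2 rose in Tam over Ctrl (Il1b, an inflammatory cytokine, by 3.00 with an adjusted p of 0.00737, and Marco, a scavenger receptor, by 3.28 with an adjusted p of 0.0157 from edgeR's quasi-likelihood F-test, Benjamini-Hochberg adjusted) and 0 fell, beside 0.35% of all genes called higher. Neither gene was called different between Tam and fresh medium. Il1b had 34.1 to 50.2 CPM in Tam and 37.3 and 52.6 CPM in fresh medium (log2 difference -0.66, adjusted p = 0.486 by edgeR) and Marco means of 8.29 CPM in Tam and 10.1 CPM in fresh medium (log2 difference -0.95, adjusted p = 0.413 by edgeR), with overlapping samples. In Tam against fresh medium 7 of the 17 fell and 0 rose, beside 3.07% of all genes called in either direction and 1.42% called higher. In Ctrl against fresh medium 11 of the 17 fell and 0 rose, beside 3.69% of all genes called lower. Among them were Il1b, which fell by 3.66 on the log2 scale, and Marco, which fell by 4.23. The interferon-inducible GTPases Gbp2 and Gbp5 fell by 2.21 and 2.03, the chemokines Cxcl10 and Ccl5 fell by 2.35 and 1.75, the costimulatory receptor Cd40 fell by 1.89, and the transcription factor Irf5 fell by 1.42. Irf1, another transcription factor of this family, fell from a mean of 184 CPM in fresh medium to 73.2 CPM in Ctrl. Of 13 tested alternative activation genes, 0 were called in Tam against Ctrl by edgeR or DESeq2, with 3 at an unadjusted p under 0.05, beside 1.11% of all genes called by edgeR in either direction. In Ctrl against fresh medium Mrc1, the mannose receptor, rose by 2.27 (434, 518 and 828 CPM in Ctrl, 117 and 122 CPM in fresh medium) while Socs2 and Irf4 fell by 1.88 and 1.75, so that 1 of the 13 rose, beside 4.1% of all genes called higher, and 2 fell, beside 3.69% called lower.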
